A study of Homo sapiens with 6 samples.

Results

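The 46 genes described here encode proteins that liver cells release into the blood plasma, namely 6 carriers, 13 acute-phase proteins and inhibitors, 20 proteins of coagulation and fibrinolysis and 7 complement proteins. A gene was counted through the probe sets (groups of short probes that report one transcript) whose annotation names that gene symbol and no other, which gave 85 probe sets for the 46 genes, out of 54613 probe sets and 21298 singly named genes tested. Where a gene had several such probe sets, its level was read from the brightest, and 24 of the 46 had only 1. The RNA came from Huh7, an established human hepatocarcinoma cell line, so all the values describe 1 tumour line and no primary hepatocytes. Every culture grew for 24 h in medium with 10% fetal bovine serum, and the 3 groups were given vehicle alone (control), 120 µg/ml of native LDL, the main cholesterol particle of plasma (nLDL, loading the cells with cholesterol), or 5 µM of a statin (depleting it). The compound used as statin is not named in the labels. Each group had 2 biological replicates, each on its own Affymetrix U133 Plus 2.0 array, and the question was how gene expression in hepatic cells follows the cholesterol supply.

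Hepatocytes make most of the protein in plasma, and several liver-enriched transcription factors, among them HNF1, HNF4 and C/EBP, are known to act together on these genes. Carriers such as albumin and transferrin move lipids, metals, hormones and vitamins. Acute-phase proteins change with inflammation through interleukin-6, STAT3 and C/EBP, clotting factors form a cascade that ends in the cleavage of fibrinogen by thrombin, and complement proteins mark and lyse microbes.

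The arrays had similar medians, between 4.85 and 4.91 on the log2 scale, and the first principal component, with 45.3% of the variance, placed the statin arrays at 35.8 and 24.2 and the remaining arrays at -17.3 to -12.5. For ACTB the 3′ end read higher than the 5′ end, a gap that measures RNA integrity, by 1.92 and 2.13 on the statin arrays and 1.54 to 1.64 on the others, while the gap of GAPDH was 0.02 to 0.10 on all 6. Its part in the results below was not tested. Among the members, 42 were above the level that bounds the dimmest 40% of probe sets (4.23) and 4 were below it, namely F9, C9, LECT2 and FETUB. The hepatic label was checked on ALB and AFP, the albumin of adult plasma and its fetal relative, which read 14.15 to 14.29 on every array. Because RNA was taken from whole cultures, fewer cells with a transcript and less of that transcript per cell cannot be told apart in any value below. With 2 arrays against 2, an exact permutation test cannot go below 0.333, so the tests reported are limma's moderated tests across all probe sets, with the Benjamini-Hochberg adjustment and a threshold of 0.05.

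Statin treatment raised F5, SERPINC1 and ITIH3 by about 1.5-fold and lowered KNG1 by 1.34-fold, and the other 42 of the 46 genes did not pass the test. The counts of 3 higher and 1 lower stand beside 1.49% and 2.26% of all 21298 genes. At an unadjusted p under 0.05, limma gave 12 members higher and 2 lower, against 11.7% and 10.1% of all genes. In 30 of the 46 genes both statin arrays lay above both control arrays and in 8 both lay below, where the shares over all genes were 30.3% and 25.1%. The median difference over the 46 genes was 0.10 log2 units, and over all genes it was 0.02. It was 0.06 after each array was centred on its own median. Of the 13 members within 2 log2 units of the highest probe set on the arrays (14.56), none was called, and a compression of differences near the top of the scale was not tested.

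**Figure D1:**
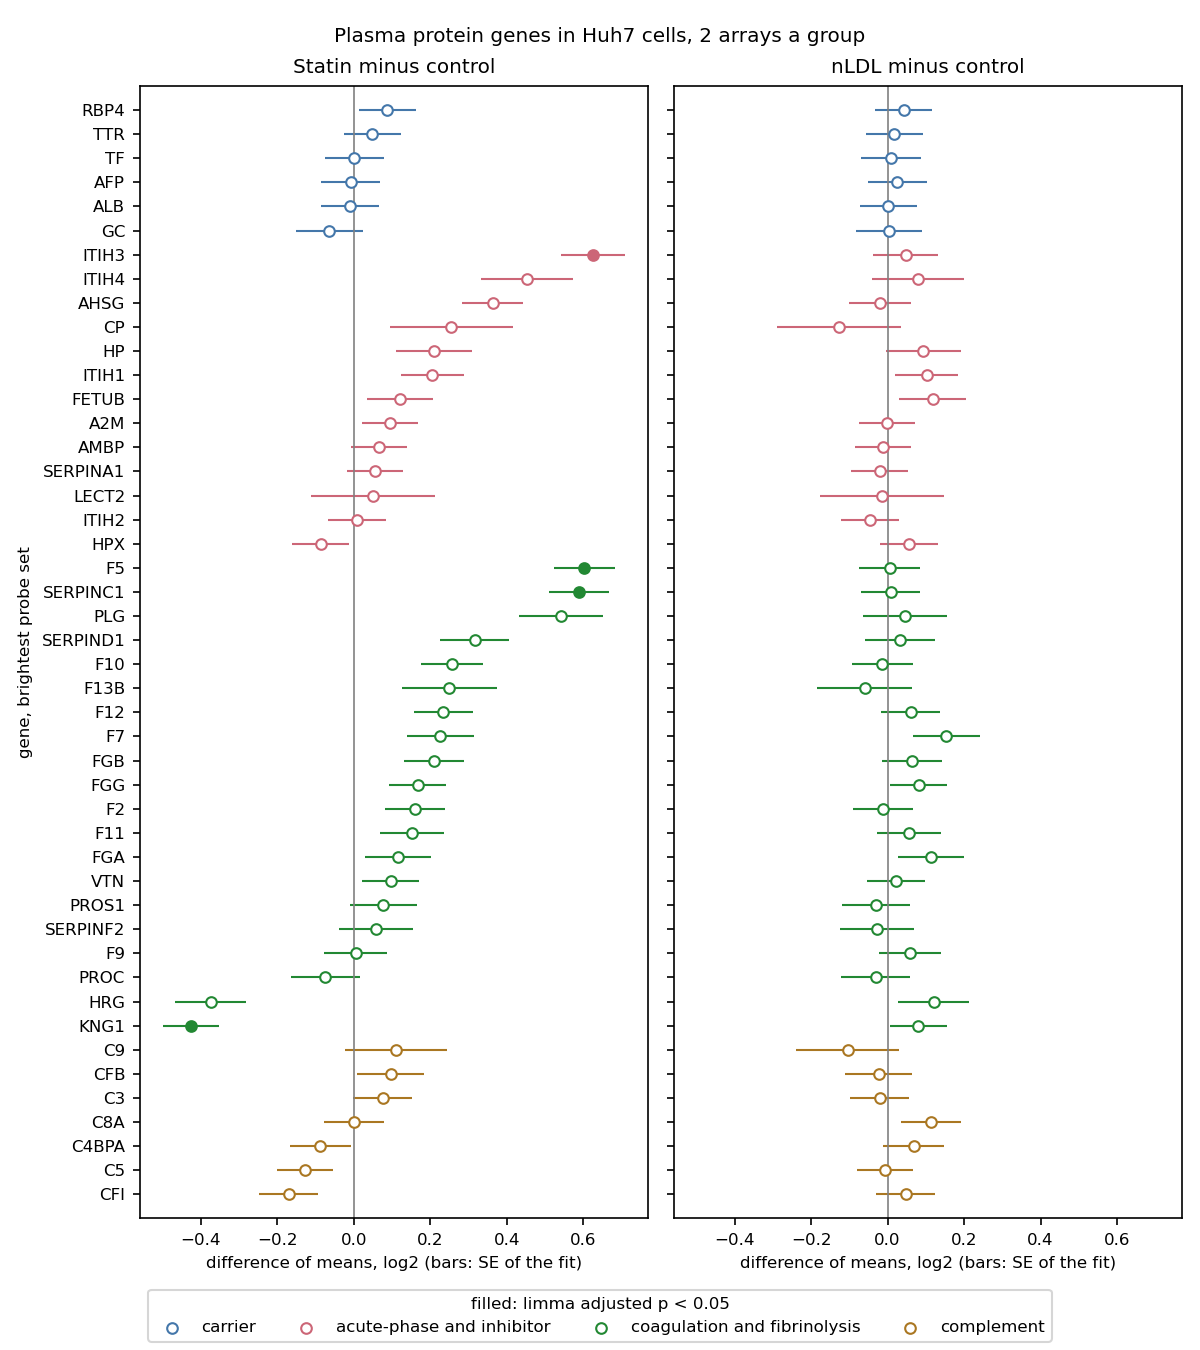
Difference from control in log2 units at the brightest probe set of each of the 46 genes, with statin on the left and nLDL on the right, and bars of 1 standard error of the limma estimate (2 arrays a group). Filled points passed an adjusted p of 0.05, as ITIH3, F5, SERPINC1 and KNG1 did with statin and no gene did with nLDL, and the nLDL values stay between -0.13 and 0.15.

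Coagulation held most of the calls. F5 encodes factor V, the cofactor with which factor Xa converts prothrombin. F5 read 9.87 and 9.84 on the control arrays, 9.82 and 9.90 with nLDL and 10.50 and 10.41 with statin. The statin arrays were the high pair, and neither overlapped with any other array. The difference from control was 0.60 ± 0.08 log2 units (SE, n = 2 arrays a group), a 1.52-fold change with an adjusted p of 0.0172 by limma. At their brightest probe sets the other clotting factors read in the same direction but were not called. Factor X (F10), which activates prothrombin, was 0.26 higher, factors XII (F12) and VII (F7), which start the contact and tissue factor routes, were 0.23 higher each, and prothrombin itself (F2) was 0.16 higher. Factor XI (F11) differed by 0.15 and the carrier subunit of factor XIII (F13B) by 0.25, with adjusted p between 0.156 and 0.383 for these 6 genes by limma. F9, which encodes factor IX, was dim and differed by 0.01. The second probe set of F7, which was above the dim level, differed by -0.04.

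Among the brakes on clotting, SERPINC1 encodes antithrombin, the main plasma inhibitor of thrombin and factor Xa. SERPINC1 read 11.44 and 11.42 on the control arrays, 11.39 and 11.49 with nLDL and 12.02 on both statin arrays. The statin pair again stood clear of the other 4 arrays. The rise was 0.59 ± 0.08 log2 units, or 1.50-fold, with an adjusted p of 0.0172 by limma. Heparin cofactor II (SERPIND1), a second thrombin inhibitor, was 0.32 higher without passing (adjusted p = 0.128 by limma). The genes of the protein C pathway, which inactivates factors V and VIII, differed little, by -0.07 for PROC and 0.08 for PROS1.

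KNG1 encodes kininogen, the cofactor of the contact system and the precursor of bradykinin. KNG1 read 11.19 and 11.22 on the control arrays, 11.29 and 11.28 with nLDL and 10.78 and 10.77 with statin. The statin arrays were the low pair and the groups did not overlap. It fell by 0.43 ± 0.07 log2 units with statin, with an adjusted p of 0.036 by limma, and this call was lost under another quantile normalization (adjusted p = 0.0512), under which 4 members were higher and 0 lower. HRG encodes histidine-rich glycoprotein, which binds heparin, fibrinogen and plasminogen. HRG read 5.44 and 5.23 on the control arrays, 5.46 and 5.45 with nLDL and 4.99 and 4.93 with statin. Here too the statin arrays were lowest, but the control arrays lay 0.21 apart and the difference of -0.37 did not pass against control (adjusted p = 0.0934 by limma).

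The calls against control needed every control and statin array. F5, SERPINC1, ITIH3 and KNG1 each lost their call when any 1 control or statin array was left out, although their differences moved little (0.56 to 0.65, 0.58 to 0.60, 0.60 to 0.65 and -0.44 to -0.41), and the largest adjusted p reached 0.153, 0.155, 0.152 and 0.224 by limma. Without either nLDL array KNG1 was also lost, at 0.0732.

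**Figure D2:**
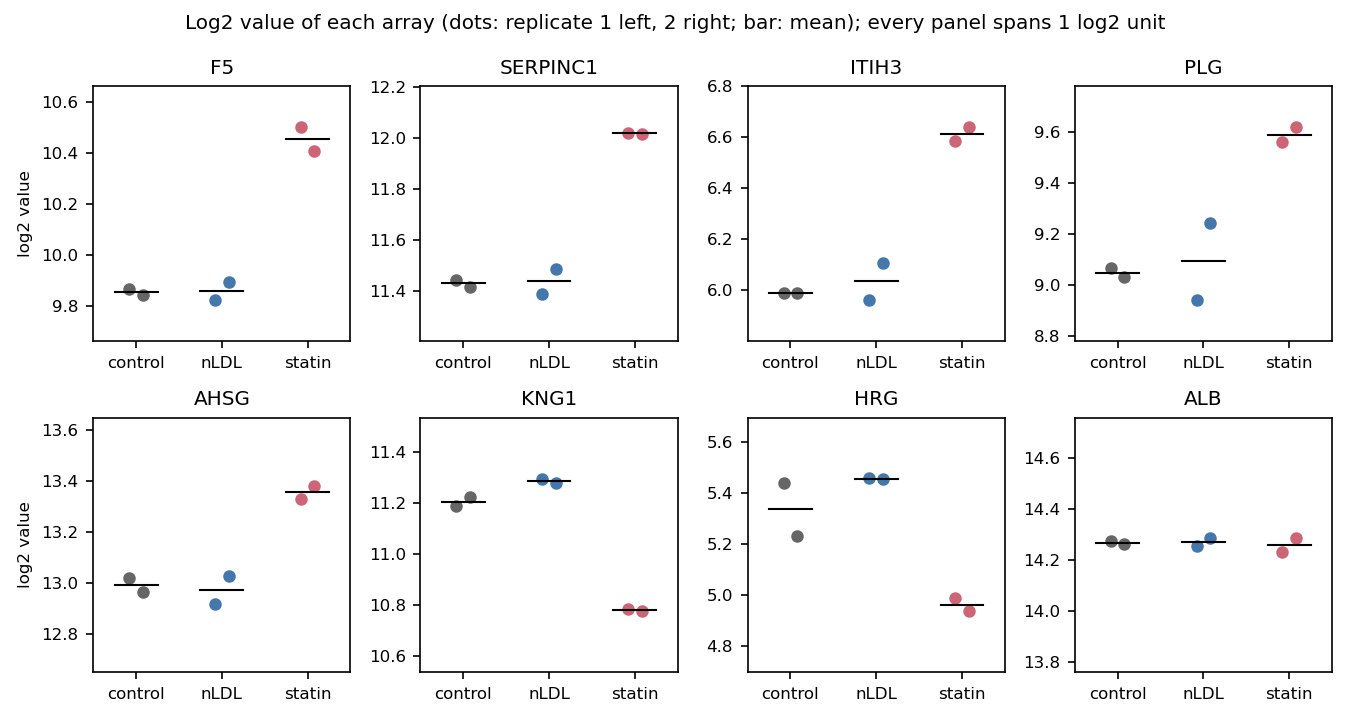
Log2 value of each of the 6 arrays for the members the results turn on, with control, nLDL and statin from left to right, the 2 replicates as dots and their mean as a bar, every panel spanning 1 log2 unit. F5, SERPINC1 and ITIH3 show the statin pair above the other 4 arrays and KNG1 and HRG show it below, while ALB lies between 14.23 and 14.29 on all 6.

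Fibrinogen, the substrate of the clot, is built from 3 chains whose genes FGB, FGA and FGG lie side by side on chromosome 4. FGA read 12.52 and 12.54 on the control arrays, 12.57 and 12.72 with nLDL and 12.61 and 12.69 with statin. FGB read 13.22 and 13.26, then 13.26 and 13.35, then 13.43 and 13.48 in the same order. FGG read 13.26 on both control arrays, 13.31 and 13.37 with nLDL and 13.42 and 13.43 with statin. For each chain both statin arrays were above both control arrays, and at this probe set of FGA the nLDL arrays covered the same range as the statin arrays. At the other probe sets of FGA both statin arrays lay above both nLDL arrays. Those differed from control by 0.25 and 0.26, and the second probe set of FGB by 0.12, none of them called. At the brightest probe sets of FGA, FGB and FGG the differences with statin were 0.12 (95% interval -0.09 to 0.32), 0.21 (0.02 to 0.39) and 0.17 (-0.01 to 0.34). None passed, with adjusted p of 0.521, 0.216 and 0.285 by limma. Plasminogen (PLG), the zymogen of the enzyme that dissolves fibrin, read 9.06 and 9.03 on the control arrays, 8.94 and 9.24 with nLDL and 9.56 and 9.62 with statin. Both statin arrays were above the rest, and the difference of 0.54 missed the threshold at its brightest probe set (adjusted p = 0.0548 by limma). The plasmin inhibitor SERPINF2 differed by 0.06 and vitronectin (VTN), an adhesive protein of plasma and matrix, by 0.10.

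The promoters of the fibrinogen chains are shown because the 3 genes are neighbours that are read together as 1 protein. Each run holds the 250 bases before the annotated start, from RefSeq on GRCh38.p14 and 5′ to 3′ on the strand of the gene, with FGB at chr4:154562730-154562979 (plus), FGA at chr4:154590743-154590992 (minus) and FGG at chr4:154612657-154612906 (minus). Capitals mark every match, on either strand, to GTTAAT (an HNF1 word), CAAAGNCCA (HNF4), TTNNGNAA (a loose C/EBP word) or TTCNNNGAA (STAT).
FGB promoter: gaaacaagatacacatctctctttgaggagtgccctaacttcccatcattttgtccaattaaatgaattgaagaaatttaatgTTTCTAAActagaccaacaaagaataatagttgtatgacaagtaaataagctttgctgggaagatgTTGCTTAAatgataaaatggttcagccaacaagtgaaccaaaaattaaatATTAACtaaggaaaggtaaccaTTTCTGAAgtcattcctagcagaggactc
FGA promoter: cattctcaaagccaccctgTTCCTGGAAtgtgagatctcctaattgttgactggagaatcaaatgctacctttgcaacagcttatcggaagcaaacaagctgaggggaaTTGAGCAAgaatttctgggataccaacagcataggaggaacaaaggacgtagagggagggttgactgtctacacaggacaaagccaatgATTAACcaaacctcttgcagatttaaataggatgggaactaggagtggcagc
FGG promoter: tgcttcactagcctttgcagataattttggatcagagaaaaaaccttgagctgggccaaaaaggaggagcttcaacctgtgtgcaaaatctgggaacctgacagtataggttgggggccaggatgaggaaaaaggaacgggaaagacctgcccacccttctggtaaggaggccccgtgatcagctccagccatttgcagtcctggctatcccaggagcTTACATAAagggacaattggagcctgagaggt
FGA and FGB held the HNF1 word at nearly the same place, beginning 52 and 51 bases before the start, and FGG had no match to it in this window. FGB held 3 matches to the C/EBP word, FGA 1 and FGG 1, and the STAT word was matched once, in FGA, beginning 231 bases before the start. Over the 37 members with a promoter in the table, the HNF1 word was found in 24.3%, the HNF4 word in 5.41%, the C/EBP word in 54.1% and the STAT word in 21.6%. Over all 27305 promoters of the same length the shares were 6.22%, 1.31%, 33.6% and 6.78%. A match is a description of letters and was not tested as a binding site. F5 and ITIH3, both higher with statin, had no match to any of the 4 words in this window.

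In the acute-phase and inhibitor class 1 of 13 genes was called, and the median difference with statin was 0.12. ITIH3 encodes a heavy chain of the inter-alpha-trypsin inhibitor family, whose members attach to hyaluronan in the matrix. ITIH3 read 5.99 on both control arrays, 5.96 and 6.11 with nLDL and 6.59 and 6.64 with statin. No other array reached the statin pair, and the rise was 0.63 ± 0.08 log2 units, or 1.54-fold, with an adjusted p of 0.018 by limma. ITIH4, a neighbour of the same family, read 5.18 and 5.50 on the control arrays, 5.44 and 5.41 with nLDL and 5.72 and 5.88 with statin. The control arrays lay 0.32 apart, and its difference of 0.45 did not pass (adjusted p = 0.109 by limma). The heavy chains ITIH1 and ITIH2 differed by 0.20 and 0.01, and AMBP, whose product gives the light chain bikunin, by 0.07, none of them called.

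The other genes of the class were not called at their brightest probe set. Haptoglobin (HP), which captures free haemoglobin, differed by 0.21, ceruloplasmin (CP), the copper carrier, by 0.26, alpha-1-antitrypsin (SERPINA1), which restrains neutrophil elastase, by 0.06 and the broad protease inhibitor A2M by 0.10. Hemopexin (HPX), which binds haem, was the 1 member of the class with a negative difference, -0.09. LECT2 and FETUB were dim and differed by 0.05 and 0.12. AHSG encodes fetuin-A, which keeps calcium phosphate in solution. At its brightest probe set AHSG read 13.02 and 12.97 on the control arrays, 12.92 and 13.03 with nLDL and 13.33 and 13.38 with statin. The statin arrays were above all others, and the difference of 0.36 missed the threshold (adjusted p = 0.0713 by limma).

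The carriers stayed within a narrow band. At the brightest probe sets none of the 6 passed by limma, at an adjusted or an unadjusted p, or by the methods' test. Their differences with statin ran from -0.06 to 0.09 with a median of -0.00. ALB read 14.27 and 14.26 on the control arrays, 14.25 and 14.29 with nLDL and 14.23 and 14.28 with statin. The 3 groups overlapped, and the interval of the difference with statin, -0.19 to 0.17, leaves room for a change of either sign of that size. RBP4, the plasma carrier of retinol, read 13.08 and 13.06, then 13.12 and 13.10 with nLDL, then 13.18 and 13.13 with statin. GC, which carries vitamin D, read 12.93 and 12.95 on the control arrays, 12.86 and 13.03 with nLDL and 12.88 and 12.87 with statin. These were the widest carriers, at 0.09 and -0.06. TTR, which carries thyroxine, differed by 0.05, transferrin (TF), the iron carrier, by 0.00 and AFP by -0.01.

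With statin against control, complement showed no call at the brightest probe sets by limma, at an adjusted or an unadjusted p. The differences with statin ran from -0.17 to 0.11 with a median of 0.00. The second probe set of CFI differed by -0.24, with an unadjusted p of 0.0411 and an adjusted p of 0.244 by limma. The widest was CFI, the protease that inactivates C3b and C4b, which read 12.08 and 12.01 on the control arrays, 12.05 and 12.13 with nLDL and 11.88 and 11.87 with statin. C5, the source of the membrane attack complex and of C5a, read 11.84 and 11.85, then 11.85 and 11.84 with nLDL, then 11.71 and 11.73 with statin. In both genes the statin arrays were lowest, yet the differences of -0.17 and -0.13 had adjusted p of 0.297 and 0.404 by limma, and CFI alone of the class met the thresholds of the methods' test, as lower. Complement component C3, on which all routes of activation meet, differed by 0.08, factor B (CFB) of the alternative route by 0.10 and the C4b-binding protein chain C4BPA by -0.09. Of the lytic components C8A differed by 0.00 and C9, which was dim, by 0.11.

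By class, the separation of the arrays ran as follows. Both statin arrays lay above both controls in 16 of 20 coagulation genes and 10 of 13 acute-phase and inhibitor genes, and in 2 of 6 carriers and 2 of 7 complement genes. They lay below in 3, 1, 1 and 3 genes of those classes. Over all genes the shares were 30.3% above and 25.1% below. The shares above were 80% in the coagulation class and 76.9% in the acute-phase and inhibitor class. They were 33.3% and 28.6% in carriers and complement, near that of all genes. The median differences were 0.16, 0.12, -0.00 and 0.00. These counts were not tested between classes.

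With nLDL no member passed the test, which with 2 arrays a group does not show that the levels were alike. limma called 0 of the 46 genes, 0 of all genes (0%), and 0 members had an unadjusted p under 0.05, where 3.34% of all genes did so as higher and 1.83% as lower. The methods' test also called 0 members. Differences ran from -0.13 to 0.15 with a median of 0.02. Both nLDL arrays were above both control arrays in 11 members and below in 0, against 17.7% and 18.1% of all genes. The second nLDL array was above the first in 33 of the 46 members (71.7%) and in 49.1% of all genes, and its median over the members was 0.07 above the control mean while that of the first was -0.00.

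Outside the carriers, the 2 widest nLDL differences of each class were those of CP and FETUB, of F7 and HRG and of C8A and C9. CP read 9.86 and 9.92 on the control arrays, 9.50 and 10.03 with nLDL and 10.19 and 10.10 with statin. Its nLDL arrays lay on either side of the controls, so the difference of -0.13 turned to 0.14 without the first nLDL array. F7 read 9.23 and 9.05 on the control arrays, 9.30 and 9.29 with nLDL and 9.38 and 9.35 with statin. Both treated pairs were above the controls, and the difference with nLDL was 0.15 (95% interval -0.05 to 0.36). C8A, a chain of the lytic complement pore, read 7.55 and 7.53, then 7.63 and 7.67 with nLDL, then 7.59 and 7.49 with statin, and its nLDL arrays were the highest pair by 0.11 over control. FETUB, a liver protease inhibitor related to fetuin-A, read 3.19 and 3.18, then 3.32 and 3.29, then 3.40 and 3.22, all below the dim level. C9, the subunit that lines the complement pore, read 2.64 and 3.05, then 2.73 and 2.74, then 2.90 and 3.0, also below it. Both treated pairs of C9 lay between its control arrays, the statin pair above the nLDL pair. AFP read 14.17 on both control arrays, 14.15 and 14.24 with nLDL and 14.15 and 14.17 with statin, and its difference of 0.03 with nLDL was -0.019 without the second nLDL array. HRG and RBP4, whose values are given above, were 0.12 and 0.04 higher with nLDL.

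Between the treatments, statin gave 3 members higher and 2 lower than nLDL did, beside 1.54% and 1.97% of all genes. F5, SERPINC1 and ITIH3 differed by 0.60, 0.58 and 0.58 and KNG1 by -0.51, with adjusted p of 0.0172, 0.0175, 0.0217 and 0.0218 by limma. HRG was the member that passed here but not against control, at -0.49 at its brightest probe set (adjusted p = 0.0459 by limma). The second probe set of HRG, also above the dim level, differed by -0.32 and was not called (adjusted p = 0.277 by limma). The 2 comparisons share the statin arrays, so the second count is not separate support for the first. All 5 calls were lost when any 1 of the 6 arrays was left out, with adjusted p up to 0.128 for F5 and SERPINC1, 0.145 for ITIH3 and KNG1 and 0.218 for HRG by limma.

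Genes with several probe sets gave a second reading. KNG1 was called at all 3 of its probe sets with statin, at -0.43, -0.76 and -0.78, of which the latter pair had adjusted p of 0.0168 and 0.0181 by limma. SERPINC1 was called at both of its probe sets (0.59 and 0.62), and F5 at 2 of 3 (0.60 and 0.50, with 0.57 at the third and an adjusted p of 0.0758 by limma). AHSG and PLG, named here after their values were seen, were called at their second probe set only. The second probe set of AHSG read 12.09 and 12.06 on the control arrays, 11.97 and 12.08 with nLDL and 12.68 and 12.76 with statin, a rise of 0.64 (adjusted p = 0.0168 by limma). That of PLG read 6.82 and 6.76, then 6.64 and 6.89, then 7.45 and 7.53, a rise of 0.70 (adjusted p = 0.0222 by limma). In both genes the statin pair stood clear of the other arrays at either probe set.

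Counted by any probe set, 5 members were higher with statin (AHSG, F5, ITIH3, PLG and SERPINC1) and 1 lower, beside 1.83% and 2.93% of all genes. Of the 20 members with 2 or more probe sets above the dim level, 17 had the same sign at the brightest and the second. The sign was the same at all such probe sets in 15, and the difference was larger in size at the second in 11. RBP4, F7 and CFB changed sign at the second probe set, and CP and ALB at a later one. ALB did not read alike at its probe sets, with -0.01 at the brightest and -0.32, 0.13 and -0.19 at the next, none of them called, so the flat reading of ALB holds for its brightest probe set.

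**Figure D3:**
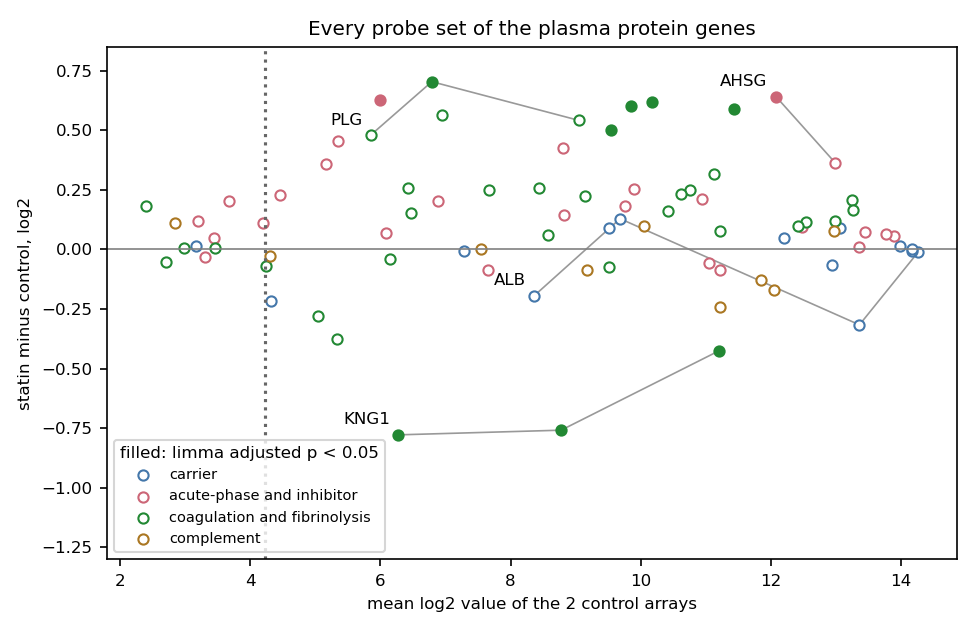
Difference between statin and control against the mean log2 value of the 2 control arrays for all 85 probe sets of the 46 genes, with lines joining the probe sets of ALB, AHSG, PLG and KNG1 that lie above the dim level of 4.23 (dotted). Filled points had a limma adjusted p under 0.05, and the 3 probe sets of KNG1 run from -0.78 to -0.43.

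Several members are neighbours in the genome, by the gene order of RefSeq on GRCh38.p14. AHSG, FETUB, HRG and KNG1 follow each other on chromosome 3 with 0 protein-coding genes between them, and all 4 products share cystatin-like domains. With statin this row read 0.36, 0.12, -0.37 and -0.43, so its members did not move one way. AHSG passed as higher at its second probe set and KNG1 passed as lower at all 3. ITIH1, ITIH3 and ITIH4, also on chromosome 3 and adjacent, read 0.20, 0.63 and 0.45. ALB and AFP, adjacent on chromosome 4, read -0.01 each, and F7 and F10, adjacent on chromosome 13, read 0.23 and 0.26. F5 and SERPINC1 lie on chromosome 1 with 35 protein-coding genes between them.

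**Figure D4:**
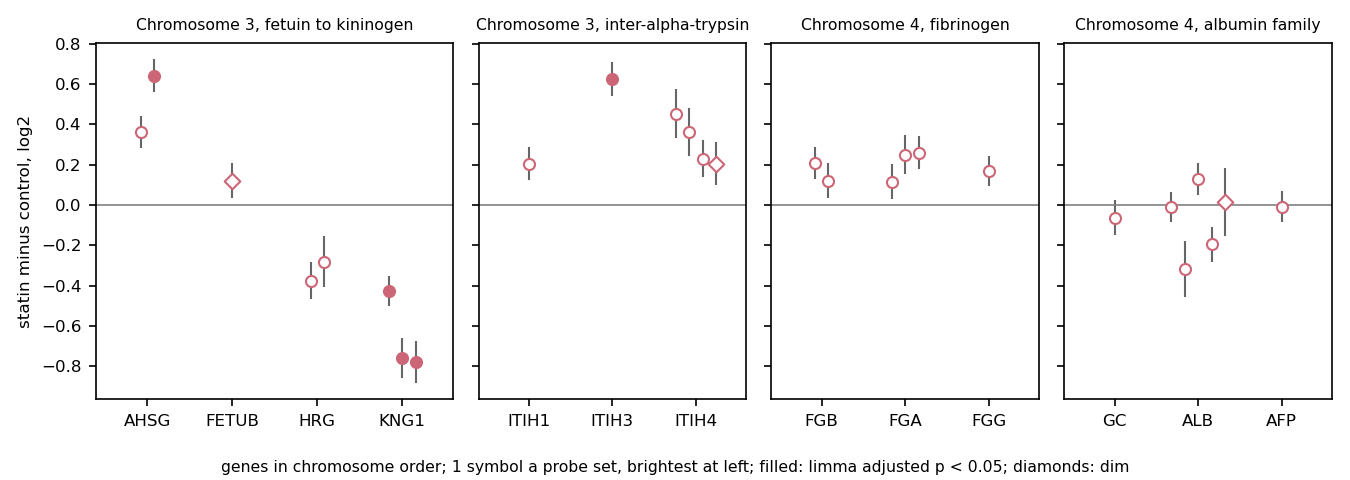
Difference between statin and control in log2 units, with bars of 1 standard error, at every probe set of members that lie next to or near each other on chromosomes 3 and 4, the genes in genomic order and the brightest probe set of each at the left (filled, limma adjusted p under 0.05, and diamonds, below the dim level). In the row of AHSG, FETUB, HRG and KNG1 the values run from 0.64 at the second probe set of AHSG to -0.78 at the third of KNG1, those of the ITIH genes and the fibrinogen chains all lie above 0, and those of ALB lie on either side of it.

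The promoters of 3 genes of that row are shown because they are neighbours with opposite differences. The sequences are from RefSeq on GRCh38.p14, all on the plus strand, with AHSG at chr3:186612810-186613059, HRG at chr3:186665764-186666013 and KNG1 at chr3:186717109-186717358, and capitals mark matches to the same 4 words.
AHSG promoter: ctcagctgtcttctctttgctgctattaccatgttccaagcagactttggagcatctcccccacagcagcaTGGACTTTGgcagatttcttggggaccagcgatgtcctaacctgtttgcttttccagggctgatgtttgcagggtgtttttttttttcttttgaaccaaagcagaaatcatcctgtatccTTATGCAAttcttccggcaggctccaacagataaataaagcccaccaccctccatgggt
HRG promoter: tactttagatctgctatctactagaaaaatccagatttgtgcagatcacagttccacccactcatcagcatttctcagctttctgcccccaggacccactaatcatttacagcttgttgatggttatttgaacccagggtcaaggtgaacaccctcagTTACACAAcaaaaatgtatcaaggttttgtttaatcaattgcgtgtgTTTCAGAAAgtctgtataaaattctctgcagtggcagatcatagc
KNG1 promoter: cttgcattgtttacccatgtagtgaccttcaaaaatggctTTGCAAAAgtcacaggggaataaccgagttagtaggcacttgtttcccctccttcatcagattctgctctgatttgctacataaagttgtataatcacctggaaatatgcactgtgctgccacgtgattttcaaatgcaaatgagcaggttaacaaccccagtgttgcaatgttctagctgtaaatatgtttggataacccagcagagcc
AHSG held 1 match to the HNF4 word, beginning 179 bases before the start, and 1 to the C/EBP word at 59. HRG held 3 matches to the C/EBP word, at 92, 45 and 44 bases before the start, of which the last pair overlap, and KNG1 held 1, at 210. The HNF1 and STAT words were matched in none of these 3 windows.

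The rest of the plasma protein network was read from lists of genes that are not members. Over all genes, limma called 1.49% higher and 2.26% lower with statin against control. Of 24 further complement genes 2 were higher with statin, C8G (0.62, adjusted p = 0.0466 by limma), a small subunit of C8, and CFD (0.57, adjusted p = 0.018 by limma), the protease that cleaves factor B. The control arrays of C8G read 4.50 and 4.15, on either side of the dim level. C8G was also 0.38 above control with nLDL, and statin against nLDL was not called (adjusted p = 0.371 by limma). The terminal component C7 fell by 0.57 (adjusted p = 0.0221 by limma). Of 11 further acute-phase genes measured, SAA4, a serum amyloid A that is made constitutively, fell by 0.76 (adjusted p = 0.00756 by limma), and CRP was dim. Of 10 further carriers, IGFBP1, which binds insulin-like growth factors, rose by 1.73 (adjusted p = 0.00837 by limma) and AFM, the vitamin E-binding afamin, fell by 0.65 (adjusted p = 0.0333 by limma).

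At an unadjusted p under 0.05 by limma, 11.7% of all genes were higher with statin than control and 10.1% were lower. The shares of all genes by the methods' test are not given here. Of 12 genes of interleukin-6 and C/EBP signalling limma called 0 with statin, with 1 higher and 2 lower at an unadjusted p under 0.05 and 0 higher and 2 lower by the methods' test. The kinase JAK1 came nearest, at -0.40 with an adjusted p of 0.0569 by limma. Of 13 genes of the vitamin K cycle and of protein export only NQO1, a quinone reductase, was called, with a rise of 1.24 (adjusted p = 0.00278 by limma). With nLDL limma called 0 genes in all of these lists. Of 10 hepatocyte markers outside the members 0 were called, while 4 were higher at an unadjusted p under 0.05 and by the methods' test. Their median difference with statin was 0.14, and their summed linear level was 45650 to 45900 on the control arrays, 45700 to 47290 with nLDL and 50700 to 50730 with statin. Of 14 markers of other cell types limma called 0, with 3 higher and 2 lower at an unadjusted p under 0.05 and 1 higher and 2 lower by the methods' test. Their median was 0.18, their summed level was 621.5 to 668.8, 666.2 to 669.1 and 640.6 to 702.3, and 4 of them (CD163, CDH5, ACTA2 and KRT5) were below the dim level. The part of these markers in the members' differences was not tested.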

How the data were processed

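Total RNA of 6 Huh7 cultures was hybridised to Affymetrix U133 Plus 2.0 arrays. The authors normalised the arrays in GeneSpring GX 11.5, per the submitters' processing notes, and deposited log2 values, which the name of their second table calls RMA (robust multi-array average). The array medians of these values differed slightly. Values were used as deposited. That table holds 6 further value columns, not used as samples, identical to the series table at each of 54675 probe sets. The 62 control probe sets were left out.

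Groups were compared in limma 3.58.1 (R 4.3.3) with 3 group means over all 6 arrays, two-sided, and Benjamini-Hochberg adjustment over 54613 probe sets at 0.05. The labels number the replicates and name no pairing. Same-numbered arrays had correlations of 0.049, 0.022 and 0.087 and were compared unpaired, although low correlations cannot show that the cultures were unpaired. The methods' test, an unpaired t-test at p of 0.05 and 1.1-fold, was run as an alternative, and its p-values rest on the spread of the compared arrays alone. Other alternatives were a replicate block, 3 scalings, a filter on dim probe sets, a prior that was trended and robust, a fit of only the compared groups, gene means, a call at any probe set and omission of each array in turn.

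Members and lists were chosen with earlier results of these data known. Values of all 6 arrays were given for members called in any comparison, the 2 members of each class with the largest difference under each treatment, ALB and the fibrinogen chains, and up to 4 called genes were named from each other list. The number of arrays limits the precision. Promoters came from a RefSeq table on GRCh38.p14, which matched 37 members. A list of further coagulation genes is not reported here.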

Additional observations from a re-analysis of the deposited data

How the results depend on the processing

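With 2 arrays a group and 3 residual degrees of freedom, each call rested on every control and statin array. The members called with statin against control were 3 higher and 1 lower, and against nLDL 3 and 2. Over all 54613 probe sets, 522 were called higher and 907 lower against control, and 566 and 768 against nLDL. With the trended and robust prior these were 1787 and 3167, and 1858 and 2606. Without dim probe sets they were 1050 and 1695, and 1034 and 1333, of 32768. Member counts below rise along with these, and shares over all genes for the methods' test are not given here. Against control, higher calls numbered 5 without the dimmest 40% of probe sets, 13 with a trended and robust prior, 11 by the methods' test, 0 by that test after adjustment, 5 by any probe set and 0 to 4 when 1 array was left out. Lower calls numbered 0 with the replicate block, another quantile normalization or the compared groups alone, 2 without dim probe sets, 3 with the trended and robust prior, 2 by the methods' test, 0 after adjustment and 0 to 0 when 1 array was left out. Against nLDL, higher calls numbered 5 without dim probe sets, 10 with the trended and robust prior, 0 in the compared groups alone, 7 by the methods' test, 0 after adjustment, 5 by any probe set and 0 to 0 when 1 array was left out. Lower calls numbered 1 with the replicate block, 0 in the compared groups alone, 1 with gene means, 4 by the methods' test, 0 after adjustment and 0 to 0 when 1 array was left out. Under the replicate block 7 of the 9 calls remained, KNG1 being lost against control and HRG against nLDL, and the correlations of same-numbered arrays were 0.022 to 0.087, so the numbers were not read as pairs. With nLDL the count stayed at 0 under every alternative run. With 1 array left out, the nLDL difference ran from -0.019 to 0.069 for AFP, from -0.39 to 0.14 for CP and from -0.31 to 0.10 for C9. Over all alternatives to single-gene values, 335 kept their direction and side of the threshold, 67 were no longer past it, 9 came past it and 3, namely these, changed sign. The causes were not tested. Cultures of 1 line, 1 dose and 1 time limit what the values describe, and the dim members F9, C9, LECT2 and FETUB were measured close to background.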

Other observations

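Probe sets that the annotation assigns to a member together with another gene were kept out of the counts. One shared by PLG and LPA, whose product is the apolipoprotein of lipoprotein(a), read 8.86 and 8.65 on the control arrays, 8.83 and 9.10 with nLDL and 9.48 and 9.42 with statin. Its statin pair was above the other 4 arrays. It was called higher against control, at 0.70 (adjusted p = 0.0331 by limma), and was not called against nLDL (adjusted p = 0.0935 by limma). One shared by HP and HPR, the haptoglobin-related gene, read 12.06 and 11.96, then 12.02 and 12.27, then 12.18 and 12.28, and its second nLDL array lay within the statin pair. Which of the genes gave these signals was not tested.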
